A study of Mus musculus with 12 samples.

Results

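Liver messenger RNA was compared between mice fed a diet with 5% and mice fed a diet with 1% of an oil concentrate of very-long-chain polyunsaturated fatty acids (VLCPUFA), whose carbon chains exceed those of the common polyunsaturated fatty acids. The comparison takes the 8 libraries of the 1% and 5% diets out of 12 in the series, with sex as an additive term. The other 4 libraries come from controls that ate the same chow without oil, and they are outside the test. All mice were wild-type C57BL/6J, 9 months old when the AIN-93G chow began, and ate it for 8 weeks with the oil mixed in by weight. The animals were fasted for 5 hours and injected with tribromoethanol before the liver was collected, and only RNA with an integrity number above 7 was sequenced. Each diet has 2 females and 2 males. By animal number, females N983 and N984 with males N971 and N972 make up the 1% livers; at 5% the females are N987 with N988 and the males N975 with N976. Each animal gave 1 library, whole liver was used, and the composition of the oil and the hour of collection are not given in the sources used here. The series text speaks of 6 samples per diet, and 4 per diet were analysed here.

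Polyunsaturated fatty acids reach several regulators of the liver. Products of their oxidation can release the transcription factor NRF2 from its inhibitor KEAP1, and NRF2 then raises enzymes that conjugate, reduce and export reactive compounds. Fatty acids also bind the receptor PPARα, which raises genes of fatty acid oxidation. They restrain the sterol regulatory element binding protein SREBP1c, which raises genes of fatty acid synthesis. The related protein SREBP2 raises genes of cholesterol synthesis. The unfolded protein response is a further pathway sensitive to membrane lipids: its sensors in the endoplasmic reticulum (ER) raise chaperones and degradation factors when protein folding falls behind.

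Depth of the 8 libraries ran from 6275571 estimated reads in 1% female N984 to 15674130 in 5% male N976. The 20 core hepatocyte genes were all measured, with summed levels from 165000 to 183000 CPM (reads scaled to a common library total) at 1% and from 137000 to 163000 CPM at 5%. Those of the 20 markers of sinusoidal endothelial cells ran from 453 to 661 CPM and from 333 to 470 CPM, and those of the 23 markers of Kupffer cells from 426 to 720 CPM and from 394 to 904 CPM. None of the markers of these other cell types passed the test, and their part in the results was not tested. In whole tissue, fewer cells of a type and less RNA per cell cannot be told apart. Of the 15 pancreatic acinar markers, 3 had 0 reads over the 8 livers (Pnlip, Prss2 and Try5), as had Lep of 10 adipocyte markers. Long noncoding RNAs took 1.83% of the reads of N984, 1.47% of N983 and 1.06% of N971, against 0.685% in the other 1% male N972, and 1.14%, 0.923%, 0.679% and 0.647% in 5% livers N988, N975, N976 and N987. The share was 0.848% ± 0.232 at 5% and 1.26% ± 0.496 at 1% (SD, n = 4 each), a difference of -0.414 percentage points that an exact permutation test did not separate (2-sided p = 0.2). With this share as a term in the model, 26 genes passed the test, against 306 without it. Of those 306 calls 23 were kept, and all 306 kept their direction. Why the count fell was not tested.

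The 5% livers had more genes above the 1% livers than below them. The increases included 20 of 34 known NRF2 targets, 8 of 35 ER stress genes, 6 of 27 SREBP2 genes and 5 of 33 SREBP1c and LXR genes. The decreases included 4 of 39 genes of amino acid metabolism, 4 of 37 genes listed as male-biased and 3 of 32 complement and coagulation genes. Lists can share members. Me1, for example, counts among both the NRF2 and the SREBP1c and LXR risers, and C8a among both the male-biased and the complement genes that fell. Of 13596 genes tested, 306 (2.25%) passed an adjusted p of 0.05: 203 (1.49%) were higher and 103 (0.758%) lower at 5%. Before adjustment, 2744 genes (20.2%) had p below 0.05, of which 1571 were higher (11.6%) and 1173 lower (8.63%). The difference exceeded 1 on the log2 scale in 189 of the 306 and exceeded 2 in 39. All 4 livers of 5% lay above all 4 of 1% for 560 genes tested (4.12%) and below them for 492 (3.62%). Among the 306, 140 higher and 71 lower genes were separated in this way. The split between directions moved with the scaling, since upper quartile factors gave 137 higher and 134 lower. The limma test on the deposited CPM, which differs in tool, gene set (11339 genes) and scaling together and whose median difference over all genes was 0.10 instead of 0.01, gave 393 and 100. The plot of all genes by level shows that differences past the threshold reach from barely measured to abundant genes.

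**Figure D1:**
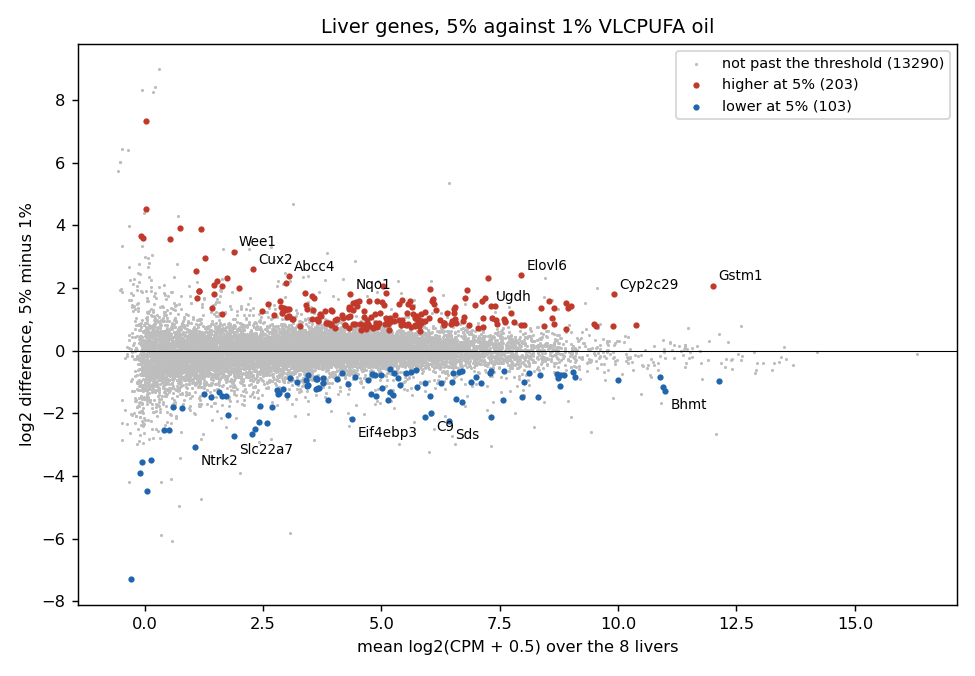
Each point is 1 of the 13596 genes tested, with its mean level over the 8 livers on the x axis (log2 of CPM + 0.5) and the edgeR log2 difference of 5% minus 1% on the y axis. The 203 genes higher at 5% are red, the 103 lower are blue and the rest are grey, and both colours occur across the range of levels.

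The position of the 4 control livers was read as a description, since they did not enter the test. The control mean lay between the 2 oil means for 218 of the 306 genes, beyond the 1% mean for 68 and beyond the 5% mean for 20. Over all 13596 genes tested these counts were 5421, 4182 and 3993. The 306 were called for a gap between the oil means, which leaves more room between them, so the 218 is no separate result. The control mean was nearer to the 1% mean for 122 of the 203 higher genes and for 81 of the 103 lower genes, compared with 6914 of the 13596 genes tested. The remaining 81 higher and 22 lower genes had a control mean nearer to the 5% mean. The count of calls rested on several single livers: it was 18 without N976, 28 without N983, 43 without N971, 52 without N984, 106 without N987, 199 without N972 and 756 without N975. Without N983, N984 and N971 together, the 1% livers with the most noncoding reads, 0 genes passed edgeR's test and 768 had an unadjusted p below 0.05. That fit has a single 1% liver, which is assumed to vary like the others, and 302 of the 303 tested calls kept their direction in it.

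The gene lists were chosen with earlier results of these data known and were not tested as sets. Among them, that of known NRF2 targets had the largest share of members past the threshold, all of them higher at 5%. Abcc4, a pump that exports conjugates and bile acids from the hepatocyte into blood, had 5.00 and 4.84 CPM in the 1% females and 2.13 and 2.27 CPM in the 1% males. The 5% females had 21.5 and 25.03 CPM of it and the 5% males 13.3 and 12.2 CPM. The 5% livers thus lay above all 1% livers and above the controls (1.28–4.005 CPM), and the log2 difference was 2.37 ± 0.17 (± standard error, n = 4 per diet, edgeR adjusted p = 0.000389), a 5.18-fold difference. Nqo1, a quinone reductase and a standard readout of NRF2, had 10.2 and 8.59 CPM in 1% females, 11.9 and 11.8 CPM in 1% males, 31.8 and 44.5 CPM in 5% females and 35.1 and 36.2 CPM in 5% males. Its 1% livers were spread within the control range of 9.01–14.5 CPM or just below it, while every 5% liver stood clear of both (log2 difference 1.80 ± 0.17, adjusted p = 0.00176). Gstm1, a glutathione transferase, had 1524 and 1938 CPM in 1% females and 1834 and 2922 CPM in 1% males, and 7350.2 and 11318 CPM in 5% females and 7185 and 8476 CPM in 5% males. The lowest 5% liver was thus above the highest 1% liver and the highest control (1628–2458 CPM), with a log2 difference of 2.08 ± 0.24 (adjusted p = 0.00600).

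Ugdh, which makes the UDP-glucuronic acid that glucuronidation consumes, had 59.1 and 74.4 CPM in 1% females, 129 and 154 CPM in 1% males, 188 and 177 CPM in 5% females and 397 and 342 CPM in 5% males. Males were higher than females on both diets and the doses were separated in each sex (log2 difference 1.42 ± 0.14, adjusted p = 0.00243). Cbr3, a carbonyl reductase, went from 0.341–0.781 CPM in the 1% livers to 2.497–5.33 CPM in the 5% livers (log2 difference 2.56 ± 0.39, adjusted p = 0.0178). That call was lost without N983, N971 or N976 (adjusted p up to 0.0735), whereas those of Abcc4, Nqo1, Gstm1 and Ugdh held with each of the 8 libraries left out in turn. Gclc, the catalytic subunit of the rate-limiting enzyme of glutathione synthesis, did not pass (0.71 ± 0.19, adjusted p = 0.0750), and its ranges of 152–309 CPM at 1% and 248–633 CPM at 5% overlapped.

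Of 34 NRF2 targets tested, 20 rose and 0 fell, which is 58.8% of the list beside 2.25% of all genes. These shares describe a list chosen with earlier results of these data known. The median log2 difference of the 34 was 1.19, beside 0.01 over all genes, and all 34 differences were positive. The risers also include Gclm, Gsr, Srxn1 and Txnrd1, which make, regenerate or use glutathione and thioredoxin, Gsta3 and Gstm4, further glutathione transferases, and Pgd and Tkt of the pentose phosphate pathway, the source of NADPH. The mean level of the list in the 4 livers of 5% ran from 0.577 to 0.874 log2 units above the average of the 12 livers, while the 1% livers ran from -0.829 to 0.0461 and the controls from -0.886 to 0.107. The number of members past the threshold fell to 5 without N983, 7 without N976, 8 without N984, 8 without N971 and 12 without N987, and was 8 with the noncoding share as a term in the model. Near-identical glutathione transferases share reads by estimation, so their sum was taken as well, over families chosen after their values were seen. The summed Gstm genes gave 1971 and 2358 CPM in the 1% females, 2378 and 3695 CPM in the 1% males, 8088 and 12400 CPM in the 5% females and 8019 and 9377 CPM in the 5% males. These groups did not overlap (exact permutation test over the 8 livers without regard to sex, 2-sided p = 0.0286, the smallest 4 against 4 livers allow, and 0.114 adjusted over 12 families). Outside the NRF2 core, 23 other genes of glutathione synthesis and use had a median of 0.03 with 0 higher and 1 lower, the kappa-class transferase Gstk1 (-0.70 ± 0.16, adjusted p = 0.0490, lost without N984, N983, N972, N971, N988, N987 or N976, adjusted p up to 0.220).

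**Figure D2:**
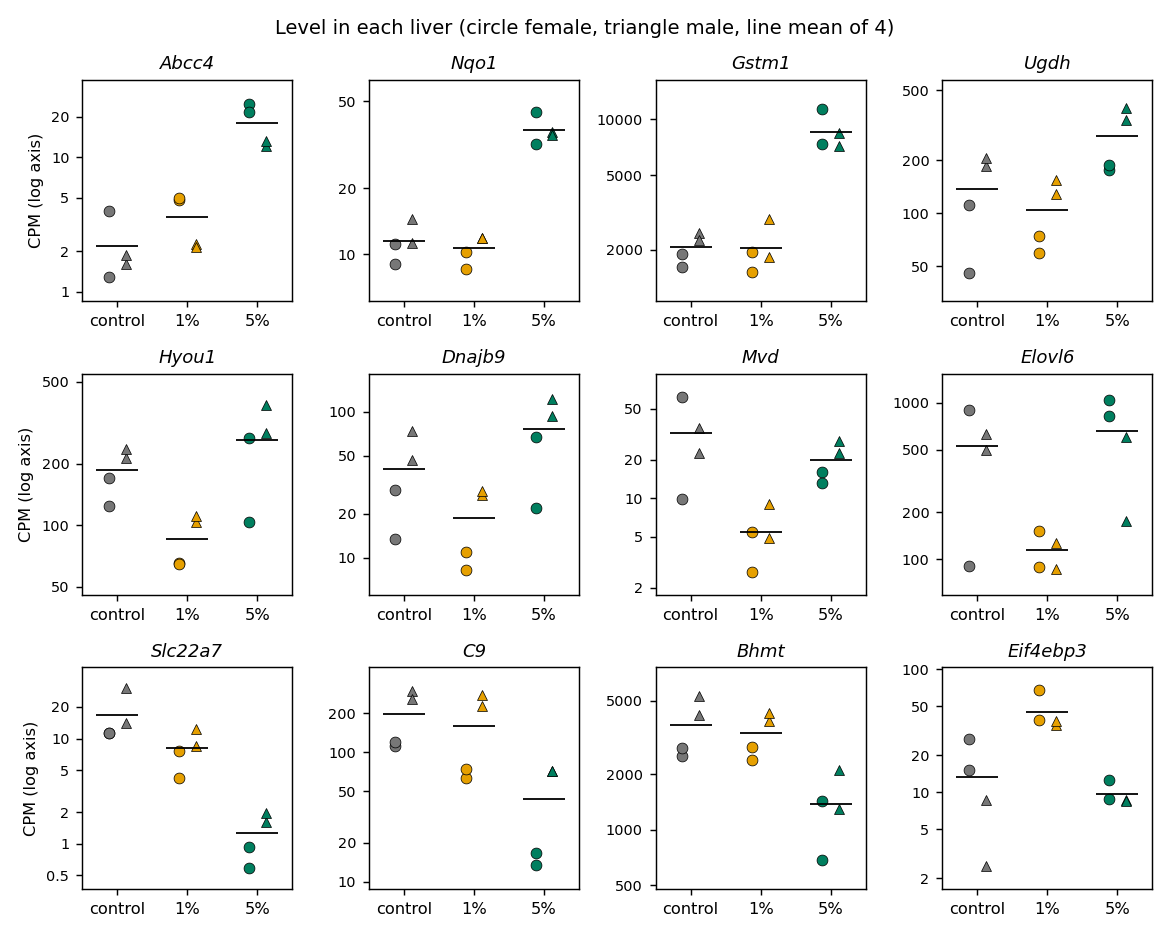
Level of 12 genes in each of the 12 livers in CPM on log axes, with circles for females, triangles for males and a line at the mean of 4 livers. The 5% livers of Abcc4, Nqo1, Gstm1 and Ugdh lie above all others of their sex, the 1% livers of Hyou1, Mvd and Elovl6 lie at or below most controls, and the 5% livers of Slc22a7, C9 and Bhmt lie below all others of their sex.

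NRF2 binds with small MAF proteins at antioxidant response elements, whose core reads TGACNNNGC. The 250 bases before the transcription start are shown for 3 risers of the NRF2 list that carry such a core on either strand, in capitals, and for Nqo1, where no core lies in this window; all are RefSeq promoters of mouse build GRCm38.p6, written 5′ to 3′ on the gene's strand. Ugdh lies at chr5:65435843-65436092 (minus strand), Abcc4, at the start listed first, at chr14:118706220-118706469 (minus strand), Gclm at chr3:122245307-122245556 (plus strand) and Nqo1 at chr8:107403206-107403455 (minus strand).
Ugdh: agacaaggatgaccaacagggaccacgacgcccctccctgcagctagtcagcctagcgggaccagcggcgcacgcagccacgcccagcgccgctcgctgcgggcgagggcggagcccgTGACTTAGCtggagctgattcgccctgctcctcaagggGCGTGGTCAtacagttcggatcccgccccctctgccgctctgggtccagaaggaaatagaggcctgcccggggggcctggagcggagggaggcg
Abcc4: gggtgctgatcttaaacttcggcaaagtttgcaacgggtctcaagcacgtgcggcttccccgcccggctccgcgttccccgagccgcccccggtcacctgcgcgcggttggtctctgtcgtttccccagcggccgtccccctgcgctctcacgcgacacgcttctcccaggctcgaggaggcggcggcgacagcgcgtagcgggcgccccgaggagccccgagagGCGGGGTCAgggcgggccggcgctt
Gclm: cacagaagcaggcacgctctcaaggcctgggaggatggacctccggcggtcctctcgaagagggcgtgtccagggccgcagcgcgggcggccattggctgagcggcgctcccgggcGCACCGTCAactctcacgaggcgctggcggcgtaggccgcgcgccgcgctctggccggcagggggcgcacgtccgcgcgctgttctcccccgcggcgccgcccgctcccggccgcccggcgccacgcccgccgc
Nqo1: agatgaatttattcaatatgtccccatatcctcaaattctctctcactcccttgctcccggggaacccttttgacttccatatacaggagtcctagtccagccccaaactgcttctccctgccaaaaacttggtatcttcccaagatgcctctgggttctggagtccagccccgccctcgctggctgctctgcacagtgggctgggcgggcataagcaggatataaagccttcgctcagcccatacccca

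The core, searched on both strands of 300 bases from 250 before to 50 after the start, was found for 9 of the 18 risers of the NRF2 list that have a promoter in the table (50%), namely Abcc4, Gclm, Gsta3, Htatip2, Me1, Pgd, Srxn1, Txnrd1 and Ugdh. It was found for 14% of all 27025 genes with a promoter, for 16.7% of the tested genes, for 39 of 149 genes higher at 5% (26.2%) and for 7 of 70 lower genes (10%). Among the higher genes outside the NRF2 list it was found for 30 of 131 (22.9%). The list was made of known NRF2 targets, so its share is not independent of the motif, and a match is a run of letters, not a shown binding site.

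Conjugation and transport genes moved in both directions, and the glucuronosyltransferases moved mostly up. Ugt2b35 had 37.6 and 24.5 CPM in 1% females, 86.8 and 125 CPM in 1% males, 170.3 and 142 CPM in 5% females and 306 and 315 CPM in 5% males (log2 difference 1.93 ± 0.22, adjusted p = 0.00587). The doses were separated within each sex and over all 8 livers, and the call held without any 1 library. Ugt1a6a rose by 1.05 ± 0.16 and Ugt1a9 by 1.10 ± 0.21, 2 genes that share their last exons, and Ugt2b34 rose by 0.80 ± 0.15 on the log2 scale (adjusted p = 0.0178, 0.0331 and 0.0331). Of 21 glucuronosyltransferases and sulfotransferases, 6 rose, all of them glucuronosyltransferases, and 1 fell, the sulfotransferase Sult1a1, with a median of 0.26. The share called was 33.3%, beside 2.25% of all genes. Ugt2b35 also counts among the risers of the NRF2 list. Summed over the Ugt1a locus, the 1% livers had 672 to 1158 CPM and the 5% livers 1376 to 1577 CPM (exact 2-sided p = 0.0286, 0.114 adjusted over the families). The summed Ugt2b genes overlapped, with 1256 to 2490 CPM at 1% and 1878 to 3737 CPM at 5% (exact 2-sided p = 0.114, 0.195 adjusted). Single calls were less firm: that of Ugt1a6a was lost without N984, N983, N971 or N976 (adjusted p up to 0.0891), that of Ugt1a9 without N984, N983, N972, N971 or N976 (0.115) and that of Ugt2b34 without N984, N983, N972, N971, N987 or N976 (0.131).

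Slc22a7, which takes up organic anions from blood, showed the opposite pattern to the export pump Abcc4. It had 7.62 and 4.22 CPM in 1% females, 8.45 and 12.4 CPM in 1% males, 0.936 and 0.589 CPM in 5% females and 1.96 and 1.59 CPM in 5% males. No 5% liver reached 2 CPM and no other liver was below 4 CPM, the controls having 11.3–30.0 CPM (log2 difference -2.74 ± 0.30, adjusted p = 0.00485). Its call held in all 8 fits that leave out a library. Abcc3, another basolateral export pump, rose from 149–243 CPM to 301–370.1 CPM (0.83 ± 0.18, adjusted p = 0.0414), a call lost without N984, N983, N971, N988, N987 or N976 (adjusted p up to 0.147). Of 25 hepatocyte transporters these 2 pumps rose and Slc22a7 fell (12% called, beside 2.25% of all genes), and the median was -0.39. Both pumps also count among the risers of the NRF2 list.

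Among 33 genes of the xenobiotic receptors CAR and PXR, 2 rose and 0 fell (6.06% called, beside 2.25% of all genes), with a median of 0.21. Cyp2c29, a cytochrome P450 of fatty acid epoxidation, had 389 and 347 CPM in 1% females, 560.5 and 991 CPM in 1% males, 2269.8 and 865 CPM in 5% females and 2112 and 2305 CPM in 5% males. Female N988 at 865 CPM was below the 1% male N972, so the groups overlapped (log2 difference 1.80 ± 0.31, adjusted p = 0.0327). Cyp2a4, a female-biased steroid hydroxylase, had 606 and 533 CPM in 1% females, 9.90 and 6.61 CPM in 1% males, 1537 and 2103 CPM in 5% females and 36.4 and 97.5 CPM in 5% males. It was separated within each sex although the females are far above the males (2.32 ± 0.39, adjusted p = 0.0331). The classical CAR target Cyp2b10 (0.99 ± 0.42, adjusted p = 0.241) and PXR target Cyp3a11 (-0.54 ± 0.20, adjusted p = 0.173) did not pass. The Cyp2a, Cyp2c and Cyp3a families hold near-identical members, so single values are uncertain. The summed Cyp2a genes overlapped, with 744.4 to 2060 CPM at 1% and 1855 to 3440 CPM at 5% (exact 2-sided p = 0.0857, 0.171 adjusted over the families). So did the summed Cyp2c genes, with 2175 to 4930 CPM at 1% and 4634 to 6674 CPM at 5% (exact 2-sided p = 0.0571, 0.137 adjusted). The sum of the Cyp3a genes was 2832 to 3996 CPM at 1% and 1487 to 2215 CPM at 5% (exact 2-sided p = 0.0286, 0.114 adjusted). The call of Cyp2c29 was lost without N984, N983, N971 or N976 (adjusted p up to 0.122) and that of Cyp2a4 without N984, N983, N971, N988 or N987 (0.0982).

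Several chaperones and degradation factors of the ER were higher at 5%. Dnajb9, a cochaperone of the ER, had 10.9 and 8.28 CPM in 1% females, 28.6 and 26.8 CPM in 1% males, 67.1 and 21.8 CPM in 5% females and 93.9 and 123 CPM in 5% males. Each sex was separated by dose, but 5% female N988 at 21.8 CPM lay below both 1% males (log2 difference 2.08 ± 0.31, adjusted p = 0.0226). Hyou1, a large ER chaperone, had 64.9 and 65.3 CPM in 1% females, 111 and 104 CPM in 1% males, 267 and 103 CPM in 5% females and 280.2 and 386 CPM in 5% males, and 5% female N988 again lay below both 1% males (1.57 ± 0.26, adjusted p = 0.0286). The controls, at 124–235 CPM, stood above every 1% liver. Syvn1, the ubiquitin ligase of ER-associated degradation, rose from 47.6–81.1 to 96.4–196 CPM (1.35 ± 0.21, adjusted p = 0.0202), and Derl3, a part of the same degradation complex, from 0.308–1.88 to 1.10–11.3 CPM (2.23 ± 0.46, adjusted p = 0.0404). Eif2ak3, which encodes the sensor PERK, rose by 1.00 ± 0.19 (adjusted p = 0.0342). Hspa5, the main ER chaperone BiP, did not pass (0.86 ± 0.21, adjusted p = 0.0609), with 452 to 762 CPM at 1% and 494 to 1635 CPM at 5%.

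Of 35 ER stress genes, 8 rose (Derl3, Dnajb9, Eif2ak3, Ern1, Hyou1, Manf, Pdia4 and Syvn1) and 1 fell (25.7% called, beside 2.25% of all genes), with a median of 0.57. The member that fell was Crebrf, a negative regulator of the transcription factor CREB3, from 22.5–34.7 CPM at 1% to 11.99–15.1 CPM at 5% (-1.07 ± 0.17, adjusted p = 0.0226). Atf4, the transcription factor of the PERK branch (0.11), and its targets Ddit3 (-0.12), Trib3 (0.01), Asns (-0.26) and Chac1 (-0.50) did not pass, with adjusted p of 0.602 or more. Control means were nearer to 5% than to 1% for 27 of the 35, and the mean level of the list was 0.18 in controls, -0.35 at 1% and 0.17 at 5% in log2 units around the 12 livers. None of the 35 passed with the noncoding share in the model, and 0 rose without N983 and 0 without N976, 1 without N971, 2 without N984, 2 without N972 and 3 without N987. The call of Dnajb9 was lost without N984, N983, N971 or N976 (adjusted p up to 0.0954), of Hyou1 without N984, N983, N972, N971 or N976 (0.103), of Syvn1 without N984, N983 or N976 (0.0805), of Derl3 without N983, N972, N971, N987 or N976 (0.134), of Eif2ak3 without N984, N983, N972, N971, N987 or N976 (0.141) and of Crebrf without N984, N983, N971 or N976 (0.0914).

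**Figure D3:**
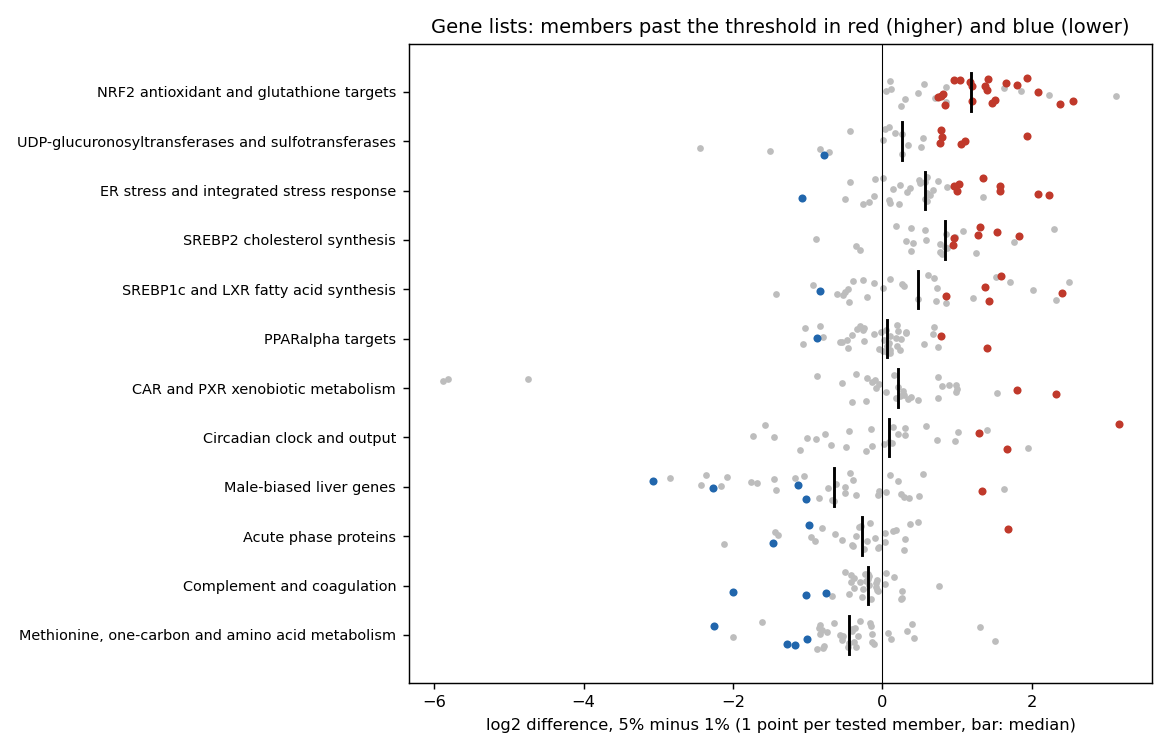
Log2 difference of 5% minus 1% for every tested member of 12 gene lists, 1 point per gene, with members past the threshold in red (higher) or blue (lower), the others in grey and a bar at the median. The median lies at 1.19 for NRF2 targets, 0.84 for SREBP2, 0.57 for ER stress, 0.06 for PPARα targets, -0.45 for methionine and amino acid metabolism and -0.65 for male-biased genes.

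Several genes of cholesterol synthesis, known targets of SREBP2, were higher at 5% than at 1%. Mvd, a decarboxylase of the mevalonate pathway, had 5.46 and 2.66 CPM in 1% females, 4.86 and 8.97 CPM in 1% males, 13.1 and 16.05 CPM in 5% females and 22.4 and 28.2 CPM in 5% males, with no overlap (log2 difference 1.84 ± 0.25, adjusted p = 0.0122). Lss, lanosterol synthase, rose from 21.9–33.5 to 34.6–78.3 CPM (0.96 ± 0.20, adjusted p = 0.0414). The controls had 40.1–153 CPM of Lss, so that the 1% livers were the lowest group. The epoxidase Sqle differed by 2.30 ± 0.77 with a wide error (adjusted p = 0.170).

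Of 27 SREBP2 genes, 6 rose, Lss, Mvd, Mvk and Stard4 among them, and 0 fell (22.2% called, beside 2.25% of all genes). For this list 24 differences were positive and the median was 0.84. Its mean level was 0.36 in controls, -0.59 at 1% and 0.22 at 5%, and the control mean was nearer to the 5% mean for 23 of the 27. Counts of risers were 0 without N976, 2 without N984, 2 without N971, 2 without N972 and 3 without N987, and 0 with the noncoding share in the model. Mvd lost its call without N976 (adjusted p = 0.0600) and Lss without N984, N983, N972, N971, N988 or N976 (up to 0.154). Insig2, which retains SREBP in the ER and lies outside this list, fell from 265–434 CPM at 1% to 46.8–285 CPM at 5%, with male N975 among the 1% livers (-1.57 ± 0.31, adjusted p = 0.0414, lost without N984, N983, N972, N971, N988, N987 or N976, adjusted p up to 0.152). The core TCACNNCAC of sterol response elements lay in the promoter of 4 of 19 genes of the list (Dhcr7, Hmgcs1, Hsd17b7 and Msmo1), beside 4.56% of tested genes, and in none of the 3 risers with a promoter in the table.

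Some fatty acid synthesis genes, known targets of SREBP1c, rose, and a desaturase of polyunsaturated fatty acid synthesis fell. Elovl6, which elongates palmitate, had 152 and 89.8 CPM in 1% females, 87.0 and 127 CPM in 1% males, 1041 and 817 CPM in 5% females and 176 and 602 CPM in 5% males. The doses did not overlap, but 5% male N975 at 176 CPM was close to the highest 1% liver (log2 difference 2.40 ± 0.44, adjusted p = 0.0409). Acaca, the acetyl-CoA carboxylase of lipogenesis, rose from 79.8–143 to 154–376 CPM (1.43 ± 0.25, adjusted p = 0.0327), the lipogenic protein Thrsp from 132–264 to 358–880.4 CPM (1.58 ± 0.27, adjusted p = 0.0325) and malic enzyme Me1 from 137–544 to 423–1037 CPM (1.37 ± 0.27, adjusted p = 0.0379), the last with overlap. Fasn, fatty acid synthase, had 243 to 568 CPM at 1% and 605 to 2332 CPM at 5% and missed the threshold (2.02 ± 0.44, adjusted p = 0.0629). Scd1, stearoyl-CoA desaturase, did not pass (-0.25 ± 0.20, adjusted p = 0.516).

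Fads2, the desaturase that starts the synthesis of long polyunsaturated fatty acids, went the other way, with 559 and 551 CPM in 1% females, 1027 and 904 CPM in 1% males, 289 and 311 CPM in 5% females and 586 and 535 CPM in 5% males. It was separated within each sex and males of 5% overlapped with females of 1% (-0.83 ± 0.13, adjusted p = 0.0190). Fads1, Elovl5 and Elovl2 of the same pathway had differences of -0.50, -0.61 and -0.52, none past the threshold (adjusted p = 0.0677, 0.0961 and 0.178). Of 33 SREBP1c and LXR genes, 5 rose (Acaca, Dgat2, Elovl6, Me1 and Thrsp) and 1, Fads2, fell (18.2%, beside 2.25% of all genes), with a median of 0.48. Control means were nearer to 1% for 18, beside 6914 of the 13596 genes tested. The mean level of the list was 0.32 in controls, -0.41 at 1% and 0.09 at 5%. Control means of Acaca (385 CPM) and Thrsp (775 CPM) exceeded the 5% means (293 and 672 CPM). Those of Elovl6 (529 CPM) and Me1 (601 CPM) were nearer to 5%, and that of Fads2 (724 CPM) nearer to 1%. The count of risers was 0 without any 1 of N984, N983, N971, N987 or N976, 7 without N972 and 13 without N975, and 0 with the noncoding share in the model. Elovl6 lost its call without N984, N983, N972, N971, N988, N987 or N976 (adjusted p up to 0.186), Acaca without N984, N983, N971, N987 or N976 (0.128), Thrsp without N984, N983, N971, N987 or N976 (0.106), Me1 without N984, N983, N971, N988, N987 or N976 (0.131) and Fads2 without N984, N983, N971 or N976 (0.105).

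Between the doses, 3 of 42 PPARα targets passed the test (7.14%, beside 2.25% of all genes), in both directions. Acot1, an acyl-CoA thioesterase and sensitive PPARα target, had 112 and 113 CPM in 1% females, 78.6 and 97.7 CPM in 1% males, 102 and 101 CPM in 5% females and 101 and 84.6 CPM in 5% males. The ranges of the doses overlapped, both lay above the controls (12.04–24.6 CPM), and the log2 difference between doses was -0.04 ± 0.14 (adjusted p = 0.897). Cyp4a10, a fatty acid omega-hydroxylase, had 1762–3067 CPM at 1%, 1848–2672 CPM at 5% and 292–583 CPM in controls (0.03 ± 0.20, adjusted p = 0.948). Cpt1a, the entry step of mitochondrial oxidation, differed by -0.54 ± 0.17 (adjusted p = 0.117), and the fasting hormone Fgf21 by 0.67 ± 0.59 (adjusted p = 0.566). Of the 42 PPARα targets, 2 rose and 1 fell, and at an unadjusted p below 0.05 there were 5 higher and 8 lower. Those that rose were Ehhadh, a peroxisomal oxidation enzyme (0.79 ± 0.17, adjusted p = 0.0414), and Acot3 (1.41 ± 0.30, adjusted p = 0.0494), and the member that fell was Cyp4a31 (-0.87 ± 0.19, adjusted p = 0.0451). The median of the list was 0.06, and its mean level was -0.53 in controls, 0.27 at 1% and 0.25 at 5%. The 3 calls were lost without most single libraries: Ehhadh without N984, N983, N972, N971, N988, N987 or N976 (adjusted p up to 0.148), Acot3 without N984, N983, N971, N988, N987 or N976 (0.183) and Cyp4a31 without N984, N983, N972, N971, N988, N987 or N976 (0.168). Summed over Acot1 to Acot6, the 1% livers had 163.8 to 285.3 CPM and the 5% livers 239.2 to 454.4 CPM (exact 2-sided p = 0.171). The summed Cyp4a genes had 4386 to 6514 CPM at 1% and 3576 to 7455 CPM at 5% (exact 2-sided p = 0.914).

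**Figure D4:**
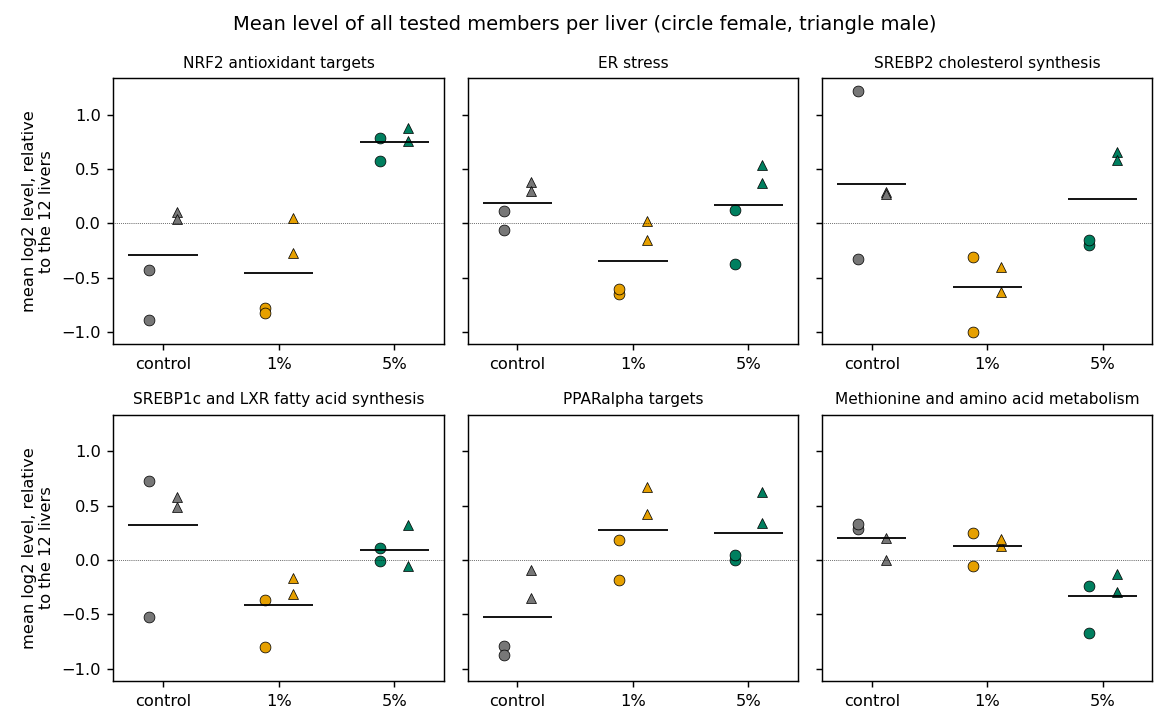
Mean level of all tested members of 6 gene lists in each of the 12 livers, in log2 units relative to the mean of the 12, with circles for females, triangles for males and a line at the diet mean. NRF2 targets are highest in the 4 livers of 5%, SREBP2 and SREBP1c genes have their lowest diet mean at 1%, PPARα targets are similar at 1% (0.27) and 5% (0.25) and lowest in controls (-0.53), and amino acid metabolism is lowest at 5%.

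Some enzymes of amino acid breakdown and one-carbon metabolism were lower at 5%. Sds, serine dehydratase, had 128 and 306 CPM in 1% females, 231 and 124 CPM in 1% males, 28.7 and 43.4 CPM in 5% females and 54.1 and 38.7 CPM in 5% males, with no overlap (log2 difference -2.26 ± 0.34, adjusted p = 0.0275). Bhmt, which remethylates homocysteine with betaine, had 2378 and 2829 CPM in 1% females, 4313 and 3882 CPM in 1% males, 1429 and 687 CPM in 5% females and 2123 and 1295 CPM in 5% males. Its highest 5% liver stayed below its lowest 1% and control livers (-1.28 ± 0.24, adjusted p = 0.0331). Ass1, a urea cycle enzyme, fell from 2412–3501 to 938–1686 CPM (-1.17 ± 0.19, adjusted p = 0.0250) and Gls2, the liver glutaminase, from 283–488 to 157–259.9 CPM (-1.01 ± 0.23, adjusted p = 0.0494). Of 39 genes of methionine, one-carbon and amino acid metabolism, 0 rose and these 4 fell (10.3% called, beside 2.25% of all genes). Of the 39 differences 32 were negative, and the median was -0.45. All 4 livers of 5% lay below all 4 of 1% for 10 of the 39, beside 3.62% of all genes. The controls (mean 0.21) lay with the 1% livers (0.13) and above the 5% livers (-0.34). The count of fallers was 0 without N976, 1 without N983, 1 without N971 and 2 without N984, and 1 with the noncoding share in the model. Ass1, Gls2 and Sds are also 3 of the 4 members past the threshold among 17 periportal hepatocyte markers, whose summed level was 9120 to 16800 CPM at 1% and 6360 to 9390 CPM at 5%. Calls were lost for Sds without N971, N987 or N976 (adjusted p up to 0.105), for Bhmt without N984, N983, N972, N971 or N976 (0.128), for Ass1 without N984, N983, N971 or N976 (0.106) and for Gls2 without N984, N983, N972, N971, N988, N976 or N975 (0.214).

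Genes of glucose handling split. G6pc, the glucose-releasing phosphatase and the remaining periportal marker past the threshold, rose from 129–604 to 538–1179 CPM (1.36 ± 0.27, adjusted p = 0.0404), and the hepatic glucose transporter Slc2a2 from 117–183 to 193–327 CPM (0.93 ± 0.18, adjusted p = 0.0334). Irs2, an insulin receptor substrate that insulin represses, fell from 10.1–24.4 to 6.74–11.3 CPM (-1.18 ± 0.22, adjusted p = 0.0327). These 3 were the members past the threshold among 27 genes of gluconeogenesis, glycolysis and insulin signalling (11.1%, beside 2.25% of all genes), with a median of 0.19. Nnmt, nicotinamide N-methyltransferase, fell from 75.8–222 to 19.4–48.8 CPM with no overlap (-2.13 ± 0.37, adjusted p = 0.0339). The calls were lost without N983, N972, N971, N988 or N976 for G6pc (adjusted p up to 0.128), N984, N983, N971, N987 or N976 for Slc2a2 (0.131), N984, N983, N971, N987 or N976 for Irs2 (0.118) and N984, N983, N971, N987 or N976 for Nnmt (0.131).

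Among secreted proteins, 3 of 32 complement and coagulation genes fell (9.38%, beside 2.25% of all genes called), all of them parts of the terminal complement complex. C9, the pore-forming component, had 73.9 and 63.3 CPM in 1% females, 279 and 229 CPM in 1% males, 16.7 and 13.4 CPM in 5% females and 72.0 and 71.7 CPM in 5% males. Males exceed females on every diet, and within each sex both 5% livers lay below both 1% and both control livers (log2 difference -1.997 ± 0.15, adjusted p = 0.000389), a call that no left-out library removed. C8a (-1.02 ± 0.22, adjusted p = 0.0470) and C8g (-0.76 ± 0.15, adjusted p = 0.0379), parts of the preceding component, fell as well. C8b (-0.45, adjusted p = 0.323) and C6 (-0.67, adjusted p = 0.0951) of the same complex did not pass, no gene of the list rose, and its median was -0.19. Hamp2, a hepcidin gene, had 1366 and 1582 CPM in 1% females, 134 and 106 CPM in 1% males, 493 and 795 CPM in 5% females and 35.4 and 35.9 CPM in 5% males, lower in both sexes (-1.47 ± 0.20, adjusted p = 0.0113). Serpina3k, a serine protease inhibitor, fell by 0.98 on the log2 scale (adjusted p = 0.0445), while Saa3, a serum amyloid gene, rose from 5.55–8.59 to 7.51–27.2 CPM (1.68 ± 0.35, adjusted p = 0.0464). Of 30 acute phase genes these were the 1 higher and 2 lower (10% called), with a median of -0.27. Apoc3, an apolipoprotein that slows triglyceride clearance, fell from 1973–3178 to 1115–2023 CPM with a slight overlap (-0.85 ± 0.16, adjusted p = 0.0330). Hamp2 lost its call without N976 (adjusted p = 0.0600), C8a without N984, N983, N971, N988, N987 or N976 (up to 0.182), C8g without N984, N983, N972, N971, N987 or N976 (0.167), Serpina3k without N984, N983, N972, N971, N988, N987 or N976 (0.164), Saa3 without N984, N983, N972, N971, N988, N987 or N976 (0.194) and Apoc3 without N984, N983, N972, N971, N987 or N976 (0.138).

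Several genes of 2 lists of known sex-biased liver genes differed by dose. Mup20, a male-biased urinary protein, had 92.3 and 72.5 CPM in 1% females, 4530.1 and 5739 CPM in 1% males, 34.1 and 31.3 CPM in 5% females and 2837 and 2532 CPM in 5% males, lower at 5% in each sex (log2 difference -1.13 ± 0.16, adjusted p = 0.0145). Mup genes are near copies, and the sum over 20 of them was 11460 and 11900 CPM in 1% females, 485.5 and 1049 CPM in 5% females, 26410 and 64330 CPM in 1% males and 42650 and 22460 CPM in 5% males. The females were thus apart by dose and the males overlapped, and the exact test over the 8 livers, which does not take sex into account, did not separate the doses (2-sided p = 0.314). Ntrk2, a neurotrophin receptor, fell from 1.97–8.45 to 0.231–0.810 CPM (-3.07 ± 0.55, adjusted p = 0.0327), with controls at 6.02–29.6 CPM. Hsd3b5, a male steroid dehydrogenase, had 80.0 and 75.9 CPM in 1% males and 8.32 and 13.9 CPM in 5% males, and stayed under 1 CPM in the females of both diets (-2.27 ± 0.47, adjusted p = 0.0484). Cux2, a female-specific repressor, had 10.1 and 11.2 CPM in 1% females and 33.3 and 111 CPM in 5% females and stayed under 1 CPM in the males of both diets (2.60 ± 0.47, adjusted p = 0.0343). Of 37 genes listed as male-biased, 4 fell (C8a, Hsd3b5, Mup20 and Ntrk2) and 1, Dnajc12, rose, with a median of -0.65 in all, -0.58 in females and -0.69 in males. Of 37 listed as female-biased 4 rose (Abcd2, Acot3, Cux2 and Cyp2a4) and 1 fell, Ntrk2, which both lists hold, with a median of 0.09. In each list 13.5% were called, beside 2.25% of all genes. The sexes overlapped in the controls for Ntrk2 (8.02 and 29.6 CPM in females, 6.02 and 12.1 CPM in males). They also did for Dnajc12 (4.55 and 6.51 CPM, 5.16 and 6.43 CPM) and Abcd2 (22.8 and 43.0 CPM, 12.5 and 24.1 CPM). The calls were lost without N983 or N976 for Mup20 (adjusted p up to 0.0667), N984, N983, N987 or N976 for Ntrk2 (0.128), N984, N983, N972, N971 or N976 for Cux2 (0.147) and N984, N983, N972, N971, N987, N976 or N975 for Hsd3b5 (0.265).

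Of 29 genes of the circadian clock and its output 3 rose and 0 fell (10.3% called, beside 2.25% of all genes), with a median of 0.09. Wee1, a clock-controlled kinase of the cell cycle, had 1.08 and 0.312 CPM in 1% females, 1.19 and 1.48 CPM in 1% males, 17.0 and 6.70 CPM in 5% females and 5.78 and 9.44 CPM in 5% males (log2 difference 3.16 ± 0.46, adjusted p = 0.0178). Bhlhe40, a repressor of the clock, rose from 50.4–66.7 to 112–283 CPM with no overlap (1.67 ± 0.22, adjusted p = 0.0113), and Per2 from 5.32–18.3 to 13.8–39.2 CPM with overlap (1.295 ± 0.20, adjusted p = 0.0205). Dbp (0.97 ± 0.71, adjusted p = 0.491), Per3 (1.01 ± 0.40, adjusted p = 0.209) and Arntl (-1.10 ± 0.50, adjusted p = 0.267) did not pass. Dbp was at 13.4 ± 8.14 CPM at 1%, 26.4 ± 11.3 CPM at 5% and 0.567 ± 0.409 CPM in controls (SD, n = 4 each), and the hour of collection was not analysed here. The calls of Wee1, Bhlhe40 and Per2 were lost without N983, N971 or N976 (adjusted p up to 0.0735), N983 or N976 (0.0598) and N983, N971 or N976 (0.0772).

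Further genes with the largest differences lie outside these groups. Eif4ebp3, an inhibitor of translation initiation, had 38.6 and 67.3 CPM in 1% females, 37.5 and 35.2 CPM in 1% males, 8.74 and 12.7 CPM in 5% females and 8.55 and 8.70 CPM in 5% males. The doses were far apart with little spread among the 5% livers (log2 difference -2.19 ± 0.21, adjusted p = 0.00176), and the controls at 2.51–26.8 CPM spanned the 5% level. Rnd1, a small GTPase, fell from 8.93–13.5 to 1.55–4.51 CPM (-2.30 ± 0.27, adjusted p = 0.00600), with controls at 8.46–27.1 CPM. Both calls held without any 1 library. Slc43a1, an amino acid transporter, fell from 6.11–13.9 to 0.874–2.89 CPM, and on the log2 scale the lectin Clec2d fell by 1.64 and the splicing factor Srrm4 fell by 2.67 (adjusted p = 0.0226, 0.0113 and 0.0418). The mitochondrial carriers Slc25a27 (-2.06 ± 0.39), Slc25a34 (-1.78 ± 0.35) and Slc25a30 (-1.57 ± 0.31) fell, as did the class I histocompatibility gene H2-Q1 (-1.76 ± 0.35, adjusted p = 0.0334, 0.0376, 0.0404 and 0.0393). Slc25a30 was at 35.5–103 CPM at 1%, 17.3–27.6 CPM at 5% and 7.64–24.0 CPM in controls, so the 1% livers stood apart there.

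The largest increases outside the groups, taken by log2 difference, were in genes of low level. Smaller called increases outside the groups also include more abundant genes, some of which are given under other observations. Prss8, a membrane-bound serine protease, rose from 2.03–4.52 to 8.67–21.0 CPM (2.15 ± 0.31, adjusted p = 0.0163). Slc2a4, the insulin-regulated glucose transporter, had 0.592–2.77 CPM at 1% and 0.809–16.6 CPM at 5%, and male N975 overlapped with the 1% livers (2.32 ± 0.45, adjusted p = 0.0379). The calcium pump Atp2b2 (2.11 ± 0.40), the ciliary gene Ttc25 (2.97 ± 0.52), Plcxd1 (2.08 ± 0.41) and the phosphate transporter Slc34a2 (3.88 ± 0.78) rose too (adjusted p = 0.0331, 0.0327, 0.0376 and 0.0476). Slc34a2 had 2.08 CPM in N983 and at most 0.156 CPM in the other 1% livers, against 0.578–22.3 CPM at 5%, so its size rests on few reads. Of the genes in these last 2 paragraphs, Clec2d lost its call without N976 alone (adjusted p = 0.0550), Prss8 without N983 or N976 (up to 0.0735) and Slc43a1 without N983, N971 or N976 (0.0639). The other 10 lost it without 5 to 7 of the 8 libraries in turn, with adjusted p up to 0.163 for Srrm4 and 0.163 for Slc2a4.

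No member passed in the lists of interferon response (39 genes, median -0.21), immediate early genes (29, -0.35), cell cycle (18, -0.17), cytosolic ribosomal proteins (32, 0.22), nuclear genes of oxidative phosphorylation (31, -0.21), cytosolic heat shock (20, 0.33) or bile acid synthesis (19, 0.04). Over all genes 2.25% passed, and at that share lists of 18 to 39 genes may hold no call. At an unadjusted p below 0.05 these lists had 4 higher and 5 lower, 1 and 5, 1 and 2, 12 and 0, 0 and 8, 4 and 1, and 3 and 4 members. Over all genes, 11.6% were higher and 8.63% lower at that p. Among these lists, the ribosomal one had the largest share higher and the oxidative phosphorylation one the largest share lower, both above those of all genes. Cyp7a1, the rate-limiting enzyme of bile acid synthesis, had 4.69–18.0 CPM at 1% and 9.64–25.1 CPM at 5% and did not pass (1.22 ± 0.50, adjusted p = 0.232).

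The doses were also compared within each sex, in a model with the 4 groups of diet and sex. In females 201 genes passed (1.48%) and in males 4 (0.0294%), but the difference between the sexes passed for 0 genes (0%) by edgeR, with 1107 at an unadjusted p below 0.05 (8.14%) and a smallest adjusted p of 0.0932. DESeq2's interaction test called 65. All but 5 of the 306 genes had the same direction in both sexes, beside 8435 of the 13596 genes tested. The 306 were called on the same livers by an additive fit, which favours equal directions, so their count is no separate result. The difference was larger in females for 217 of the 306 and for 7941 of the 13596. Abcc4 differed by 2.24 in females and 2.53 in males, Gstm1 by 2.44 and 1.72, Slc22a7 by -2.95 and -2.56, and C9 by -2.18 and -1.82. The median of the NRF2 list was 1.36 in females and 0.80 in males, and that of SREBP2 genes 0.56 and 1.14. The next 3 genes are from the 5 with the smallest p for a sex difference among genes with a name of their own and a mean log2 CPM of at least 1. The gene with the smallest adjusted p is not among them. Gstp1, a male-biased glutathione transferase, had 92.1 and 115 CPM in 1% females, 456 and 496 CPM in 1% males, 532 and 792 CPM in 5% females and 674 and 747 CPM in 5% males. The sexes were thus apart at 1% and overlapped at 5% (log2 differences 2.68 in females and 0.58 in males). Chd9, a chromatin remodeller, had 599 and 1127 CPM in 1% females against 141 and 115 CPM in 1% males and 111–172 CPM in all 5% livers. Anxa2, an annexin, had 73.4 and 67.3 CPM in 1% males against 29.3 and 23.2 CPM in 5% males, and 16.4 and 19.1 against 22.9 and 24.9 CPM in females. None of these 3 passed the adjusted test (edgeR adjusted p for the sex difference 0.242 for Gstp1, 0.274 for Chd9 and 0.242 for Anxa2).

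**Figure D5:**
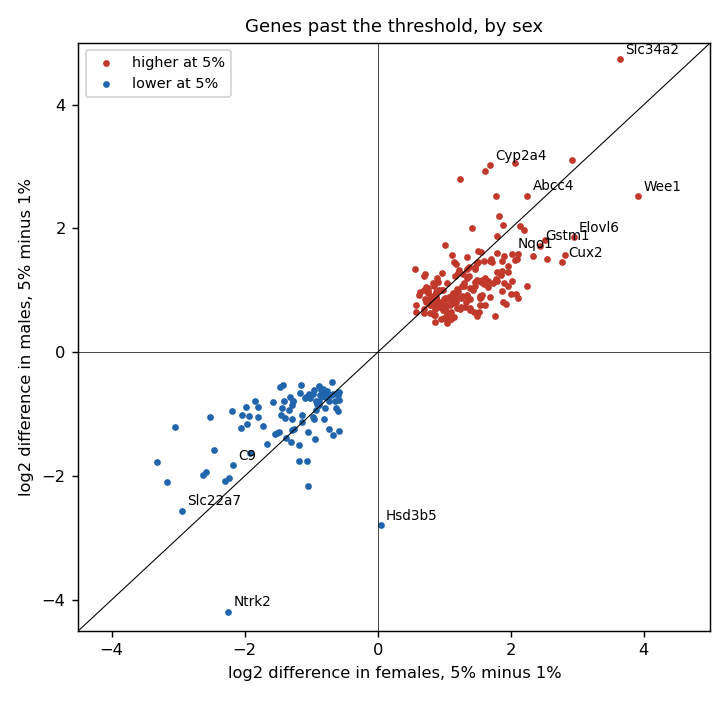
Log2 difference of 5% minus 1% in females (x axis) and in males (y axis) for the 291 called genes whose mean log2 level reached 1, red where higher and blue where lower at 5%, with the line of equal differences. Nearly all points lie in the quadrants of equal direction, which the additive fit that called these genes favours. Hsd3b5, with 0.04 in females and -2.79 in males, is an exception.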

How the data were processed

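Libraries were made from polyadenylated liver RNA with a stranded TruSeq kit, per the labels' protocols. The deposited gene values are estimated counts made by the authors, of which 11.7% are not whole, and they were rounded here. A deposited table of CPM values on a linear scale and one of estimated transcript counts served alternatives only. The submitters' processing notes name kallisto, edgeR, limma and build GRCm39 without roles, and whether counting used strand is not given in the sources used here.

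Of 49398 genes, those passing edgeR's filterByExpr over diet and sex were tested with edgeR 4.0.16 (R 4.3.3), TMM factors, a quasi-likelihood fit of diet plus sex on the 8 libraries and Benjamini-Hochberg adjustment over all 13596 genes; the threshold was 0.05. Printed CPM use TMM factors over all 12 libraries. Errors of log2 differences are standard errors, and the biological coefficient of variation was 0.253. DESeq2 1.42.0 and limma 3.58.1 served as alternatives, as did other scalings, filters, covariates and leaving out each library. Gene names came from a reference table that matched 48845 gene identifiers and left 553 unmatched. Depth limits genes of few reads, for which sizes are uncertain.

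Named genes are the 15 largest increases and 15 largest decreases among calls whose mean log2 CPM reached 1 and whose female and male differences shared a sign, up to 4 per list, a fixed set, and the 5 with the smallest p for a sex difference. Those 5 were also taken among genes whose mean log2 CPM reached 1. Predicted genes without a name of their own were left out of these 5 and of the largest changes. The members and lists were chosen with earlier results of these data known. Each animal is a separate sample, and near-identical or overlapping genes are uncertain. Some genes of the named-gene rule are not reported here.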

Additional observations from a re-analysis of the deposited data

Results flagged for a closer look

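In 210 groups of 4 livers, 1 liver was tested for standing far from the other 3 with Dixon's ratio, and 15 did so, where chance gives about 1 in 20. The values are in CPM. At 5%, Ugt1a9 had 134.4 in N987 against 62.58 to 67.36 in the others, and Cyp2c29 had 865.1 in N988 against 2112 to 2305. Acot1 had 84.65 in N976 against 100.8 to 101.6, Saa3 had 7.511 in N975 against 25.5 to 27.22, and Eif4ebp3 had 12.66 in N988 against 8.55 to 8.739. At 1%, Eif4ebp3 had 67.34 in N984 against 35.2 to 38.63. Thrsp had 131.8 in N971 against 244.5 to 263.7, and Bhlhe40 had 50.43 in N971 against 64.53 to 66.71. Per3 had 14.22 in N984 against 3.155 to 3.84. N983 stood apart for Rnd1 (8.926 against 12.89 to 13.51), Slc34a2 (2.078 against 0.08533 to 0.1562), Cyp7a1 (18.01 against 4.687 to 6.144) and Rpia (10.46 against 4.375 to 5.205). Tkt had 155.3 in N972 against 97.49 to 100.9. The share of reads from Malat1 and Neat1 was 0.1389% in N988 against 0.02614% to 0.03907% in the other 5% livers.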

How the results depend on the processing

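The count of 306 calls was 295, 271, 282, 312, 284 and 285 with relative log expression factors, upper quartile factors, at least 50 reads in 4 libraries, limma voom, transcript sums and thinned libraries. It was 184 with all 12 libraries, 1522 without a filter on low counts, 904 by DESeq2, 493 and 498 by limma on the deposited CPM (pseudocounts 0.5 and 2), 17 without the sex term and 26 with the noncoding share as a term; the cause was not tested. Leaving out 1 library gave 18 to 756. Of alternatives chosen after seeing the data, males only gave 9, females only 184, and leaving out N983, N984 and N971 gave 0, each with fewer samples. The 306 calls kept their direction wherever they were tested, except 1 of 303 in that last fit. Of 83 called genes named here, 14 passed with the noncoding share as a term and 12 without N976. DESeq2 called 65 differences between the sexes, edgeR 0. The noncoding difference ran from -0.606 to -0.225 without 1 library and was 0.00498 for Malat1 and Neat1 alone.

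Among the named genes, reversals were in values short of the threshold. Acot1 was 0.0462 and 0.0453 on the deposited CPM, 0.0551 in males and -0.125 to 0.00786 without 1 library. Cyp4a10 was -0.0372 with upper quartile factors, -0.203 in females and -0.0847 to 0.185 without 1 library. Scd1 was 0.0367 and Anxa2 0.427 in females, and Fgf21 was -0.400 and Chd9 0.124 in males. Without N983, N984 and N971, Arntl was 0.561 and Chd9 0.248. No paired analysis was possible because the animal numbers are not shared between the diets.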

Other observations

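The genes named here were chosen after their values were seen, so they are descriptions of single genes and no group was tested. Of the pentose phosphate pathway and its entry, 4 genes rose: Rpia, a ribose phosphate isomerase, from 4.37–10.5 to 12.5–30.5 CPM (1.73 ± 0.25, edgeR adjusted p = 0.0145, lost without N976), Pgd from 22.8–57.0 to 72.3–154 CPM (1.65 ± 0.32, adjusted p = 0.0409), Tkt from 97.5–155 to 175–316 CPM (1.04 ± 0.22, adjusted p = 0.0451) and the isomerase Gpi1 from 174–272 to 228–998 CPM (1.35 ± 0.28, adjusted p = 0.0417). G6pdx, which opens the pathway, did not pass (0.30 ± 0.28, adjusted p = 0.585). Pgd, Tkt and Gpi1 lost their call without 6 or 7 of the 8 libraries in turn. Among single genes of ER export and glycosylation, Mgat2, an N-glycan transferase, went from 11.4–19.5 to 23.3–68.7 CPM (1.59 ± 0.23, adjusted p = 0.0163), and the cargo receptor Lman1 from 108–149.8 to 196–277 CPM (0.85 ± 0.17, adjusted p = 0.0362). The coat protein Sec23b (1.21 ± 0.23, adjusted p = 0.0343) and Gfpt1 of hexosamine synthesis (1.32 ± 0.25, adjusted p = 0.0343) rose, with overlap through 5% female N988. These 4 were lost without N984, N983, N971 or N976, among others.

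Tsku, a secreted leucine-rich protein, rose from 27.7–41.6 to 96.1–165 CPM (1.97 ± 0.15, adjusted p = 0.000389) and held without any 1 library. Spry4, an inhibitor of receptor kinase signalling, fell from 12.3 ± 1.92 to 4.59 ± 0.456 CPM (SD, n = 4 each; -1.41 ± 0.19, adjusted p = 0.0113), and Hfe2, the hemojuvelin gene of hepcidin control, from 108 ± 7.73 to 40.1 ± 13.9 CPM (-1.46 ± 0.21, adjusted p = 0.0138), both lost without N976. The apolipoproteins Apof (-0.87 ± 0.13, adjusted p = 0.0147, lost without N983, N971 or N976) and Apoa5 (-0.92 ± 0.18, adjusted p = 0.0376, lost without 6 of the 8 libraries in turn) fell, with no overlap of the doses.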
